A study of Homo sapiens with 4 samples.

Results

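The genes described here are the zinc finger genes of human chromosome 19 whose symbol is ZNF followed by a number. The RefSeq annotation (GRCh38.p14) holds 241 of them, 208 had a probe set that named 1 gene only, and 145 of the 208 had a signal of 27 or more on at least 1 of 4 arrays. These 145 are the members, each read from whichever of its probe sets was brightest on average (log2 signal), out of 12271 genes of all kinds that passed the same filter. The signals therefore chose the members, and the levels below describe them. Near the limit, ZNF296 (highest signal 28.19), ZNF155 (28.99) and ZNF383 (29.53) lay just inside, and ZNF345 (26.81), ZNF671 (26.51) and ZNF490 (26.49) just outside.

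RNA came from 4 cultures, 1 array each: A549 with an empty vector, A549 with a CHST11 vector, NCI-H358 with an empty vector and NCI-H358 with a CHST11 vector. A549 cells derive from a lung adenocarcinoma, and NCI-H358 cells from a bronchioloalveolar carcinoma; both are established human lines. CHST11 encodes an enzyme of the Golgi that sulfates chondroitin chains. All cultures were stably transduced and kept under antibiotic selection for 2 weeks, so the controls carry a vector too. The labels do not say whether a culture was a clone or a pool, and with 1 array per group no value within a cell line has a replicate.

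Most ZNF genes of chromosome 19 encode proteins with a row of C2H2 zinc fingers that bind DNA, often behind a KRAB domain. The KRAB domain recruits TRIM28 (KAP1), which brings the histone methyltransferase SETDB1 and heterochromatin proteins to the bound site. Many of these proteins silence retrotransposons, and the genes arose by repeated local duplication, so that neighbours resemble each other in sequence. In tumour cells whole stretches of these clusters can be transcriptionally silent.

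Neighbouring ZNF genes of chromosome 19 whose starts lay less than 1 Mb apart were called a cluster and named by their first and last annotated gene. This gave 16 groups, 5 of them a single gene, and 13 held members. The promoters of the ZNF101 to ZNF254 cluster, whose vector ratios are described below, resembled each other most. Of its 16 members, 13 had a RefSeq promoter. Over the 250 bases before the most upstream start, the longest identical run between 2 promoters of this cluster had a median of 19 bases over 78 pairs, against 8 bases over 7349 pairs of members from different clusters. The longest run, between ZNF91 and ZNF675, was 43 bases. A run of 26 bases was shared by 4 members, ZNF85 (chr19:20923001-20923250, plus strand), ZNF91 (chr19:23395472-23395721, minus strand), ZNF675 (chr19:23687213-23687462, minus strand) and ZNF681 (chr19:23758892-23759141, minus strand). They are shown to make this similarity visible, 5′ to 3′, with the shared run in capitals (GRCh38.p14, RefSeq).
ZNF85: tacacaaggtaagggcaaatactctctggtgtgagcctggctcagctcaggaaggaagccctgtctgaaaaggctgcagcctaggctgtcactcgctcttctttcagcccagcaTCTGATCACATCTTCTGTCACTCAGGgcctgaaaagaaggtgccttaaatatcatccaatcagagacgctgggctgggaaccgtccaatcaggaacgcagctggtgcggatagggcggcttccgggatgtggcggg
ZNF91: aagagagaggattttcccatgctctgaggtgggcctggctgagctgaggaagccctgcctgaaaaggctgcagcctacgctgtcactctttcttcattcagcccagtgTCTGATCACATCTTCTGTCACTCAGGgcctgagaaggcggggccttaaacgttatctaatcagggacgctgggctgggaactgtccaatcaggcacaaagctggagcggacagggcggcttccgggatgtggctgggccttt
ZNF675: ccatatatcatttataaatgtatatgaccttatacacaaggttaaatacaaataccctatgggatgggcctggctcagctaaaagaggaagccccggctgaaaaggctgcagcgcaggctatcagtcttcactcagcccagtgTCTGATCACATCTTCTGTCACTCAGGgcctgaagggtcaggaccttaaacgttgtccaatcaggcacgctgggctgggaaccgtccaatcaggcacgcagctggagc
ZNF681: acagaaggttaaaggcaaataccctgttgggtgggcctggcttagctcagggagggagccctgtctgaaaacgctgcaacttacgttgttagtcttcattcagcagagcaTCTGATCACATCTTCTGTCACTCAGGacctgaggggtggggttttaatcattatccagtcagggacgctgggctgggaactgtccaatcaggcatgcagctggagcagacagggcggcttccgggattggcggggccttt

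A pair from the ZNF175 to ZNF331 cluster is shown beside them because genes of 1 cluster there had different readings between the cell lines. ZNF468 (chr19:52857620-52857869, minus strand) was read in NCI-H358 only, while ZNF160 (chr19:53103423-53103672, minus strand) had similar signals in both lines. ZNF320, which lies between them among the members, was also read in NCI-H358 only. Capitals here mark the CG dinucleotides, the sites of DNA methylation, of which ZNF468 had 23 and ZNF160 had 26 in 250 bases (GRCh38.p14, RefSeq). DNA methylation was not measured on these arrays.
ZNF468: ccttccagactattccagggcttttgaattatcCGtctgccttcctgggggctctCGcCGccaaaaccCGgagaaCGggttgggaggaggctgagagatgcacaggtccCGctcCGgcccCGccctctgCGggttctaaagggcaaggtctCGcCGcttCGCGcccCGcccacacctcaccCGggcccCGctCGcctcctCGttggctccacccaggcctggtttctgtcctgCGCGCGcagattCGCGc
ZNF160: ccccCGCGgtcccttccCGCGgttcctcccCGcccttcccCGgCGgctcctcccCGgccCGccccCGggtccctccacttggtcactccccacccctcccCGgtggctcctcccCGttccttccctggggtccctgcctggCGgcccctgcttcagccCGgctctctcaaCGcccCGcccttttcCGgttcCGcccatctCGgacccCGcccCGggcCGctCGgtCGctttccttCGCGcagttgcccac

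The 4 arrays had median signals from 15.9 to 16.31. The cell line labels matched known features in AKR1B10 and NKX2-1. AKR1B10, an aldo-keto reductase abundant in A549, had signals of 11360 and 11420 in A549 and 15.91 and 29.94 in NCI-H358. The lung lineage factor NKX2-1 had 5.625 and 6.385 in A549 and 247.4 and 263.9 in NCI-H358. Other alveolar markers listed with NKX2-1 did not share its direction. ABCA3 was higher in A549 (108.3 and 115.6 against 18.59 and 37.84), and SFTPB and SFTPC had log2 differences of 0.06 and 0.01. Of 6 epithelial markers, KRT8, KRT18 and KRT7 were at 1926 or more on every array, while KRT19, EPCAM and CDH1 were lower in A549, down to 81.96 for KRT19, than in NCI-H358, where they were at 1690 or more. Among markers of other cells, PTPRC (leukocytes), LUM (fibroblasts) and CDH5 (endothelium) were between 4.205 and 8.839 on all arrays. Other genes of those lists had signal: COL1A1 had 152.5 to 170.2 and PECAM1 34.58 to 39.96 on all arrays, CORO1A 83.49 and 83.59 in NCI-H358, CD14 38.41 in A549 with CHST11, and CD3E 27.1 in A549 with the empty vector. CHST11 was 2.66-fold higher with its vector in A549 and 4.8-fold in NCI-H358 at 1 of its 3 probe sets, and the other 2 had log2 ratios of 0.11 and -0.16 in A549 and -0.05 and 0.14 in NCI-H358. RNA quality readings also differed between vectors. The 3′ to 5′ signal ratio of GAPDH was 2.642 with the empty vector and 2.144 with CHST11 in A549, and 2.136 and 2.187 in NCI-H358. The same ratio of beta-actin was 2.4 and 2.136 in A549, and moved the other way in NCI-H358, at 2.059 and 2.318. In A549, 45 of 46 genes with long mRNAs lay below 0 between vectors (median log2 ratio -0.52) and all 7 mitochondrial genome genes above 0 (median 0.73), while in NCI-H358 these medians were 0.10 and -0.14. The part of these shifts in the vector ratios below was not tested.

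The first comparison, between the cell lines, gave the widest differences. Chromosome 19 zinc finger genes were mostly higher in NCI-H358. On the 2 A549 arrays 100 and 98 of the 145 members reached a signal of 27, against 135 and 139 on the NCI-H358 arrays. In NCI-H358 only, 44 members were measured, which is 30.3% of them, against 6.71% of all genes. In A549 only, 3 were measured (ZNF557, ZNF792 and ZNF383), against 7.14% of all genes. The remaining 98 were measured in both lines. In bulk RNA, fewer cells with a transcript and less of it per cell cannot be told apart.

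The median member was higher in NCI-H358 by 0.81 on the log2 scale (quartiles 0.10 and 1.71), where the median over all genes was 0.03. Signals were floored at 16.14 before log2, so a difference that starts below this floor is understated. limma, with terms for cell line and vector and Benjamini-Hochberg adjustment over 12271 genes, called 97 members higher and 15 lower in NCI-H358. The background was 33.9% of all genes called higher and 30.6% called lower. A member that passed the filter only through NCI-H358 had to be higher there, so these counts describe the members and give no test of them as a group. Among the 98 members measured in both lines the median difference was 0.39, beside 0.03 over the 10572 genes of all kinds measured in both. The 2 arrays of a line carried different vectors, so the error in this fit is the difference between lines in vector response and not the spread between cultures. The empty vector pair and the CHST11 pair gave the same direction for 135 of 145 members.

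**Figure D1:**
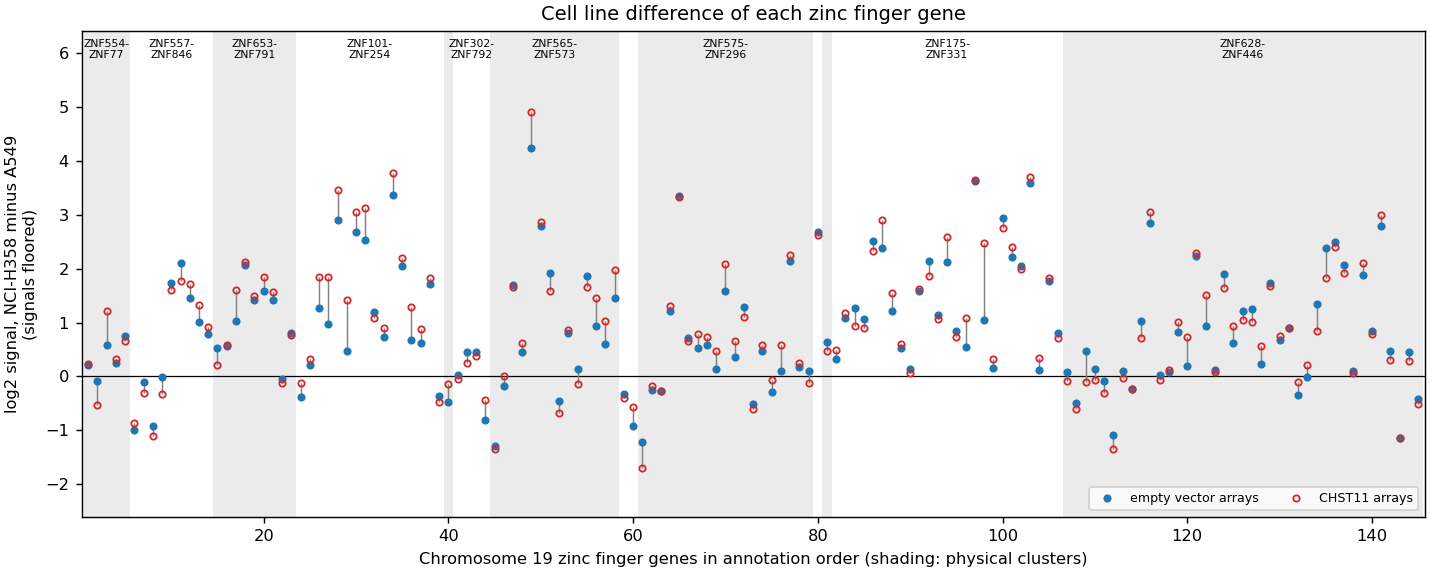
Cell line difference of the 145 members in annotation order. The y axis is the log2 signal (floored) of NCI-H358 minus A549. Filled points are the empty vector arrays and open points the CHST11 arrays, with clusters shaded alternately. The 25 members of the ZNF175 to ZNF331 cluster all lie above 0 in both pairs, and 15 of them passed the filter only through NCI-H358.

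Other gene groups of the same arrays were set beside the members to place these values, with no test between groups. Numbered zinc finger genes of other chromosomes (183 genes) had a median cell line difference of 0.31, with 11.5% measured in NCI-H358 only. The other genes of chromosome 19 (704 genes) had a median of -0.13, with 6.96% measured in NCI-H358 only.

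The cluster from ZNF175 to ZNF331 held the most members under the filter in A549. All 25 of its members had a positive difference (median 1.38), limma called 22 of them higher in NCI-H358, and 15 were measured in NCI-H358 only. Those 15 passed the filter only through NCI-H358, which required a higher signal there, so these counts give no test of the cluster. Over all genes, limma called 33.9% higher in NCI-H358, and 6.71% were measured in NCI-H358 only. For 12 of these 15 each A549 array was under the floor. Genes at similar levels in both lines stood among them. ZNF766 had signals of 280.6 and 281.5 in A549 and 308.1 and 295.6 in NCI-H358, ZNF765 had 197.3, 192.7, 213.1 and 244.6, and ZNF160 had 122.3, 116.9, 137.0 and 146.6 in the same order. None of these last 3 passed the limma test (adjusted p 0.354, 0.114 and 0.0786).

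The extreme genes of that cluster were ZNF677, ZNF468 and ZNF415. ZNF677, a gene known for promoter methylation in lung carcinoma, had signals of 5.725 and 3.533 in A549 and 195.2 and 208.8 in NCI-H358, at least 7.48-fold higher there (limma log2 difference 3.64, SE 0.090, adjusted p 3.7e-05). ZNF468 had 3.95 and 4.74 in A549 and 198 and 202.8 in NCI-H358, at least 7.42-fold higher. ZNF415 had 3.35 and 3.24 against 124.1 and 108.3, at least 4.29-fold higher. In each, the A549 arrays lay far below the floor. The arrays of the lines did not overlap, which follows from naming the members with the largest differences. "At least" here means that A549 arrays under 27 were raised to 27.

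In the ZNF101 to ZNF254 cluster, 12 of 16 members were measured in NCI-H358 only and the median difference was 1.27. For those 12 the filter required a higher signal in NCI-H358. Over all genes, 6.71% were measured in NCI-H358 only. ZNF91 and ZNF93 are the members known to repress the SVA and LINE retrotransposons of hominids. ZNF93 had signals of 18.67 and 15.23 in A549 and 138.6 and 176.8 in NCI-H358, at least 5.8-fold higher there. ZNF91 had 3.301 and 4.037 in A549, both below the floor, and dim signals of 25.79 and 39.57 in NCI-H358, at least 1.18-fold higher. ZNF738 (6.335 and 6.807 against 166.2 and 220.4) was at least 7.09-fold higher, ZNF626 at least 4.35-fold, ZNF85 at least 5.09-fold and ZNF43 at least 2.59-fold. ZNF101 and ZNF254 at the ends of the cluster had log2 differences of -0.26 (limma adjusted p 0.0909) and -0.41 (adjusted p 0.0156). Another probe set of each gave 0.18 and 0.16, so their direction was not settled.

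Most of the remaining clusters mixed genes read in 1 line with genes at similar levels in both. The members of the ZNF574 to ZNF526 cluster were both measured in both lines and lower in NCI-H358 (log2 differences -0.37 and -0.74). ZNF850, in the ZNF565 to ZNF573 cluster, had the largest difference of all members on the floored scale, with signals of 12.92 and 10.03 in A549 and 303 and 486.1 in NCI-H358, at least 14.2-fold higher (limma log2 difference 4.57, SE 0.182, adjusted p 0.000107). That rank was set by the floor: with no floor its difference was 5.08, below 5.53 for ZNF468, 5.49 for ZNF677 and 5.14 for ZNF415. Close to it in the same cluster, ZNF146, which has zinc fingers and no KRAB domain, was the brightest member of all and even between the lines, at 2067 and 2006 in A549 and 1826 and 2031 in NCI-H358 (adjusted p 0.508). ZNF404, in the ZNF575 to ZNF296 cluster, was at least 6.03-fold higher in NCI-H358, and ZNF667, in the ZNF628 to ZNF446 cluster, at least 4.62-fold. Measured in both lines, ZNF544 was 7.41-fold higher (73.79 and 59.62 against 510.8 and 472.9), ZNF114 6.26-fold and ZNF432 6.24-fold. ZNF274, which recruits SETDB1 to the zinc finger genes themselves, was 1.76-fold higher in NCI-H358 (182.4 and 192.3 against 327.7 and 333.1, adjusted p 0.00155).

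Higher in A549 were fewer members, and each of these had at least 1 NCI-H358 array above the floor. ZNF575 had signals of 71.93 and 80.37 in A549 and 30.95 and 24.83 in NCI-H358, 2.74-fold higher in A549 (limma log2 difference -1.46, SE 0.142, adjusted p 0.00118). ZNF565 was 2.48-fold higher (61.91 and 70.63 against 25.47 and 27.8) and ZNF580 2.33-fold (705.2 and 797.6 against 330.5 and 313.9). ZNF584 was 2.21-fold and ZNF558 2.01-fold higher in A549. All 5 passed the limma test, and the lines did not overlap in any of them. They were named as the 5 members with the lowest differences, so both outcomes largely follow from that choice. Over all genes, limma called 30.6% lower in NCI-H358. Each of these 5 had a single probe set, so no second reading exists here. ZNF226 had a log2 difference of -0.55, but its x type probe set gave 1.46 (46.15 and 54.45 against 139.8 and 136.8), so the direction of this gene was not settled.

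Other probe sets of the same genes bear on these readings, since the members were chosen by 1 probe set each. Of the 51 other probe sets with a signal of 27 or more, from 44 genes, 45 had a cell line difference of the same sign as the probe set that represented the gene. For the members measured in NCI-H358 only, 12 had another probe set above the filter, 13 in all. All 13 were likewise under 27 on both A549 arrays. The representing probe set was the brightest on average and itself under 27 in A549, so the choice favoured this outcome. The probe sets also share the arrays, so their agreement repeats the measurement and not the culture. Of the 145 members, 97 were read by a probe set with the plain suffix, 23 by an x type and 23 by an s type, which Affymetrix marks as able to match more than 1 sequence or transcript. The median cell line difference was 0.87 for the plain probe sets, 0.78 for the x type and 0.37 for the s type.

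The second comparison asked how the members differed with CHST11 in NCI-H358. Of 142 members measured in this line, 93 had a higher signal with CHST11 (65.5%, against 50.7% of all genes), and the median log2 ratio was 0.08 beside 0.00 for all genes. Over the 98 members measured in both lines the median was 0.04, with 58.2% above 0 and 1 member at least 1.5-fold higher. At least 1.5-fold higher were 6 members, ZNF320, ZNF682, ZNF253, ZNF850, ZNF835 and ZNF91, where 0.895% of all genes passed this size. At least 1.5-fold lower were 0 members, where 0.272% of all genes passed. At least 2-fold higher was ZNF320 alone, where 0.0527% of all genes passed. These counts rest on size and were not tested. In this line ZNF682 and ZNF91 reached the signal filter only on the CHST11 array, so being counted required a higher signal there. Among the 93, the same holds for ZNF155, ZNF431, ZNF565, ZNF600 and ZNF675. The reverse holds for ZNF296, ZNF555 and ZNF575, which reached the filter in this line only on the empty vector array. The differences had no replicate, and the SD between probe sets of the same gene was 0.28 (log2) over 43 members, wider than the 0.17 over 5150 genes of all kinds. Most of the members' ratios were smaller than that SD.

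The ZNF101 to ZNF254 cluster was higher with CHST11 in NCI-H358 in all of its 16 members, with a median log2 ratio of 0.30 and a range from 0.03 to 0.94. Of these, ZNF682, ZNF91, ZNF675 and ZNF431 reached 27 only on the CHST11 array of NCI-H358, so the filter required a higher signal there. ZNF682 had signals of 22.32 with the empty vector and 42.95 with CHST11, a 1.92-fold difference. ZNF253 had 31.56 and 57.92, a 1.83-fold difference, ZNF91 25.79 and 39.57, 1.53-fold, and ZNF506 39.14 and 58.29, 1.49-fold. ZNF85 had 114.1 and 165.9, ZNF738 166.2 and 220.4, ZNF626 102.8 and 134.1 and ZNF93 138.6 and 176.8. At the low end ZNF14 had 38.36 and 39.21. The 9 plain probe sets had a median of 0.38 and the 6 of the x type 0.30. The members' other probe sets gave a smaller shift: 6 of 8 lay above 0, with a median of 0.14. Among them ZNF253 had -0.05 (47.76 and 46), ZNF626 had -0.50 (31.37 and 22.18), and ZNF85 had 0.47 (42.15 and 58.29), close to its main value. The size of the cluster's shift therefore differed between probe sets, and for ZNF253 and ZNF626 so did the sign.

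**Figure D2:**
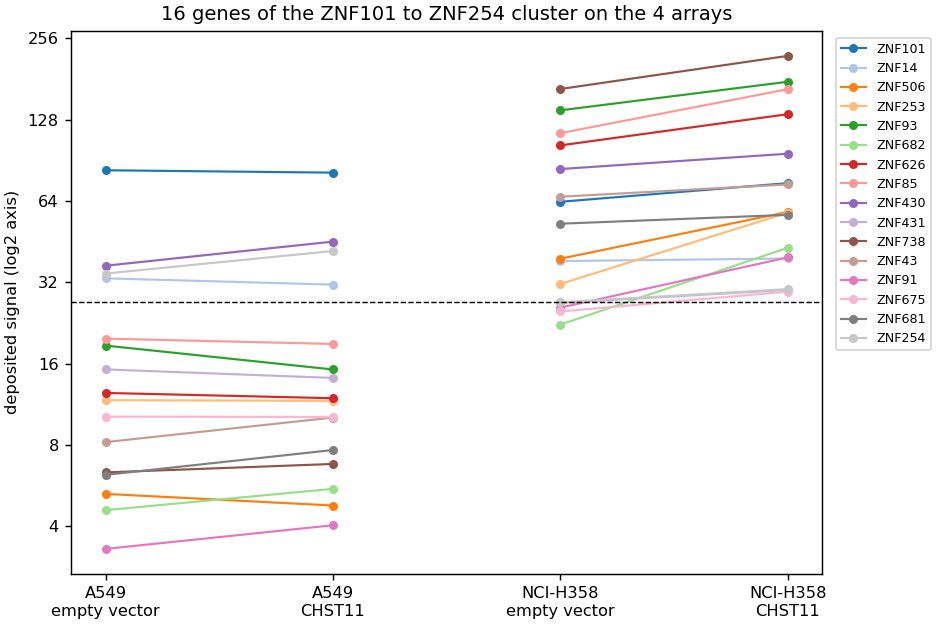
Deposited signal (log2 axis) of the 16 members of the ZNF101 to ZNF254 cluster on the 4 arrays, 1 line per gene and cell line, with a dashed line at 27. All 16 lines slope upward in NCI-H358, and 12 genes are under 27 on both A549 arrays.

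In A549 only 4 members of this cluster could be read, with ratios of -0.03 (ZNF101), -0.08 (ZNF14), 0.30 (ZNF430) and 0.28 (ZNF254). The cluster's response could thus not be compared between the lines. The other clusters with 5 or more members had smaller medians in NCI-H358, from -0.01 for ZNF628 to ZNF446 to 0.12 for ZNF554 to ZNF77 and for ZNF575 to ZNF296. ZNF507, which stands alone, had 0.24. For the ZNF302 to ZNF792 cluster all 3 measured members lay below 0, between -0.10 and -0.07. The other genes of chromosome 19 lay low in NCI-H358 with CHST11, with a median of -0.08 and 31.5% above 0, and the numbered zinc finger genes of other chromosomes had a median of 0.03 with 55.9% above 0. No difference between these groups was tested.

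ZNF320 had the largest ratio of all members. Its x type probe set had signals of 33.37 and 90.11 in NCI-H358, a 2.7-fold difference, and 15.12 and 10.37 in A549, both below the floor. Its other probe set had 114.1 and 151.5 in NCI-H358, a log2 ratio of 0.41, and 3.526 and 4.234 in A549. Both probe sets read the gene as higher with CHST11 in NCI-H358 and as near background in A549, but the size differed. ZNF850 had 303 and 486.1 (1.6-fold), from a single probe set. ZNF700 had 33.01 and 49.1 (1.49-fold). The lowest ratios were those of ZNF814 (40.89 and 28.79, log2 -0.51), ZNF665 (122 and 92.36, -0.40) and ZNF527 (106.6 and 81.31, -0.39), and for ZNF814 another probe set gave 0.31. Over all 49 comparisons with another probe set in this line, 25 had the same sign.

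**Figure D3:**
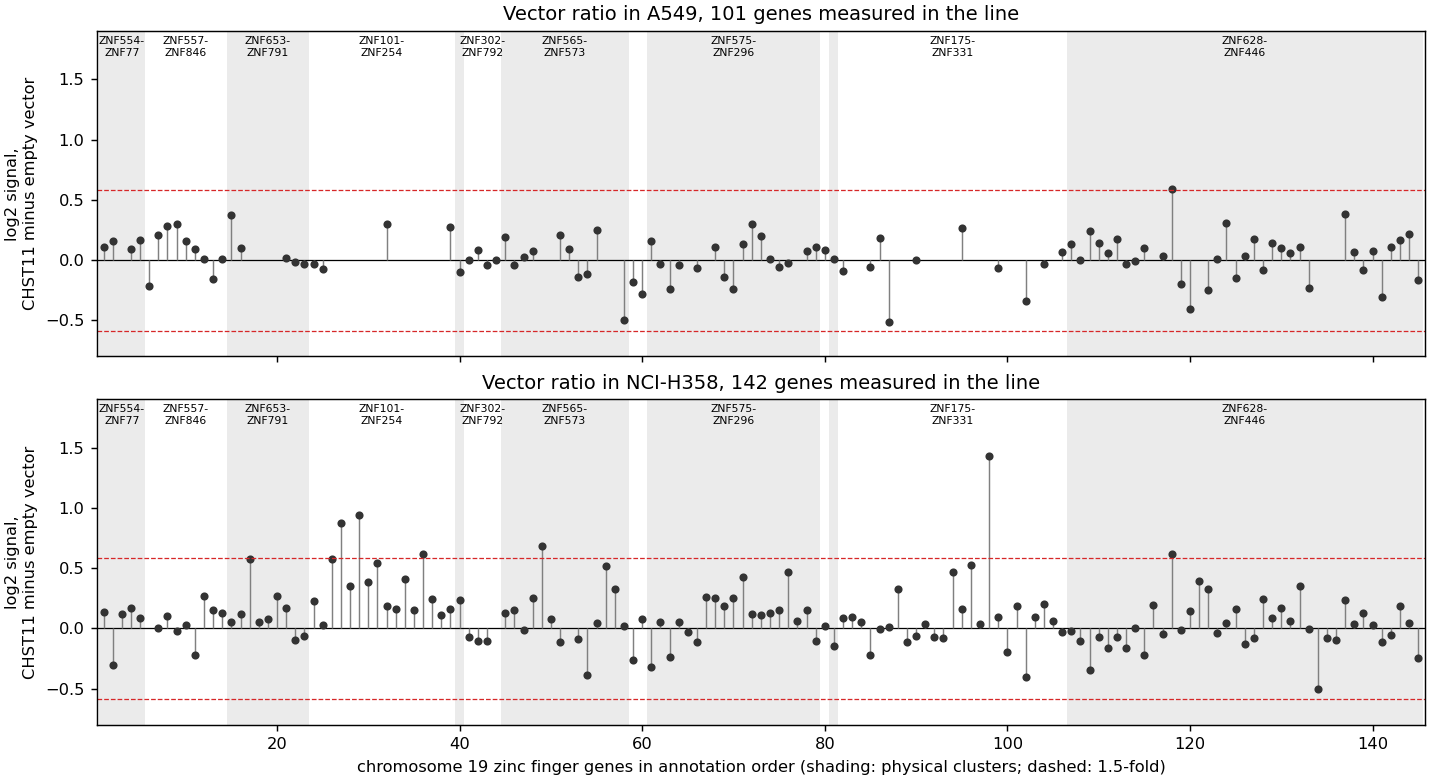
Log2 signal of CHST11 minus empty vector for each member measured in A549 (top, 101 genes) and in NCI-H358 (bottom, 142 genes), in annotation order, with dashed lines at 1.5-fold. In NCI-H358 every point of the ZNF101 to ZNF254 cluster lies above 0, and ZNF320 stands highest at 1.43.

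**Figure D4:**
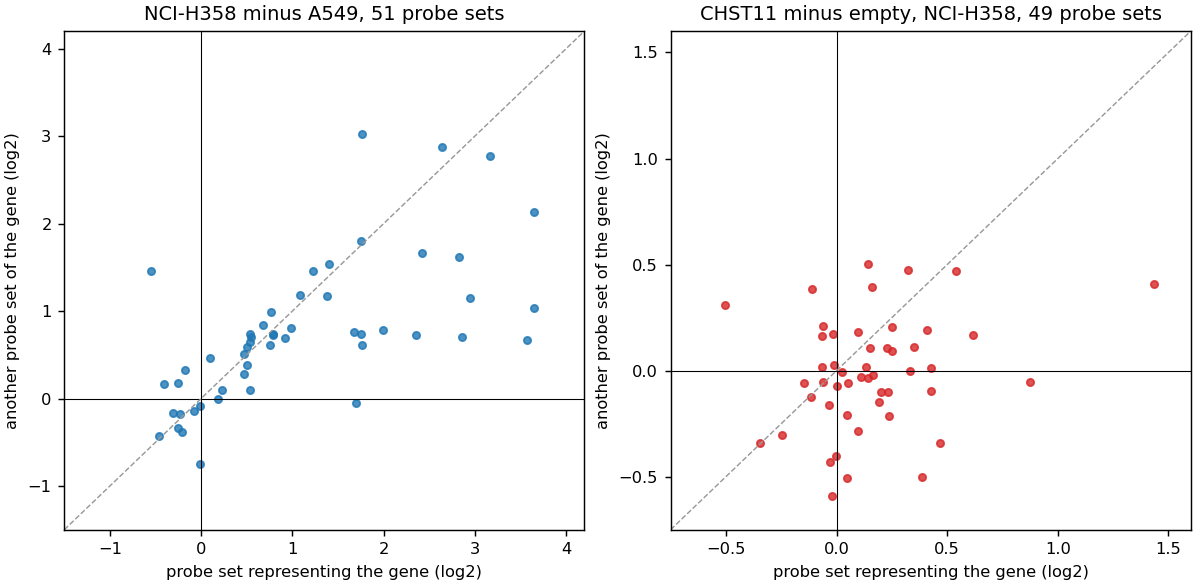
Log2 difference at the probe set that represents a gene (x axis) against another probe set of the same gene (y axis), for the cell lines (left, 51 probe sets) and for the vectors in NCI-H358 (right, 49). The sign matches in 45 of 51 on the left and 25 of 49 on the right, and the dashed line marks equal values.

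The third comparison, CHST11 against the empty vector in A549, had fewer members to read. Of 101 members measured, 62 had a higher signal with CHST11 (61.4%, against 54.7% of all genes), and the median log2 ratio was 0.03 beside 0.01 for all genes. Over the 98 members measured in both lines the SD of the ratios was 0.19 in A549 and 0.18 in NCI-H358, and 1 member was at least 1.5-fold higher in each. ZNF835 alone was at least 1.5-fold higher (33.32 and 50.13), where 0.489% of all genes passed. At least 1.5-fold lower were 0 members, where 0.716% of all genes passed. At 2-fold there were 0 members in either direction, where 0.0349% of all genes were higher and 0.0786% lower. Next highest were ZNF606 (32.06 and 41.77, log2 0.38), ZNF627 (97.77 and 126.8, 0.38) and ZNF550 (47.28 and 58.7, 0.31). The lowest were ZNF432 (30.27 and 21.23, -0.51), ZNF573 (68.66 and 48.65, -0.50), ZNF805 (44.24 and 33.35, -0.41) and ZNF665 (29.52 and 23.31, -0.34). ZNF432 and ZNF573 are 2 of the members that were much higher in NCI-H358, where their vector ratios were 0.01 and 0.02. The other genes of chromosome 19 had a median of 0.05 in A549 with 63.2% above 0, close to the members. Of 27 other probe sets in this line, 17 had the sign of the representing probe set.

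Treating the cell lines as repeats of the vector contrast, limma called 0 of 145 members and 0 of 12271 genes (0.0%) at an adjusted p of 0.05. At an unadjusted p under 0.05 it had 6 members, beside 3.05% of all genes, and eBayes with a trend had 4 and called 0. Of the 98 members measured in both lines, 35 lay above 0 in both and 16 below 0 in both, so 51 had the same sign. In A549 60 of these 98 lay above 0, and in NCI-H358 57. The same count over all genes was not made, so these counts do not show a shared response. ZNF835 had the largest ratio shared by both lines, at 33.32 and 50.13 in A549 and 35.34 and 54.26 in NCI-H358, 1.5-fold and 1.53-fold (limma log2 difference 0.60, SE 0.087, unadjusted p 0.00142, adjusted p 1). It had a single probe set, of the x type, so no second reading exists here. ZNF606 (0.38 and 0.23) and ZNF430 (0.30 and 0.19) were the next higher in both lines. ZNF665 (-0.34 and -0.40), ZNF428 (-0.24 and -0.24) and ZNF574 (-0.18 and -0.26) were the lowest in both. ZNF548 had -0.25 in A549 and 0.33 in NCI-H358, and ZNF865 0.24 and -0.35. Whether the lines differed in these responses could not be tested with 1 array per group.

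The cofactors through which KRAB zinc finger proteins act were measured in both lines. Of 25 listed genes, 23 passed the filter, and limma called 11 higher and 3 lower in NCI-H358, beside the background of 33.9% and 30.6% given above. TRIM28, the corepressor bound by the KRAB domain, had signals of 1904 and 1893 in A549 and 1638 and 1555 in NCI-H358 (log2 difference -0.25, adjusted p 0.0613). SETDB1, its histone methyltransferase partner, was 2.19-fold higher in NCI-H358 (125.4 and 112.5 against 251.9 and 267.8). TASOR and MORC2, of the HUSH silencing pathway, were 2.03-fold and 2.02-fold higher. MPHOSPH8 and PPHLN1 of the same pathway had log2 differences of -0.03 and 0.20 (limma adjusted p 0.82 and 0.16). The chromatin factor RESF1 was 6.74-fold higher in NCI-H358. The heterochromatin proteins CBX3 and CBX1 were lower, by 1.5-fold and 1.37-fold, as was the remodeller CHD3 by 1.73-fold, and CBX5 of the same HP1 family was 1.42-fold higher (adjusted p 0.00764). Between vectors 0 of the 23 were 1.5-fold apart in A549 or in NCI-H358, with medians of -0.01 and 0.09. Of the 12 listed genes of DNA methylation, 11 passed the filter, and limma called 6 higher and 2 lower in NCI-H358. The methyltransferases were split: DNMT3A was 2.26-fold and DNMT1 1.49-fold higher in NCI-H358, and DNMT3B was 1.8-fold lower.

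Promoters were available for 132 of the 145 members. In the 250 bases before the start, the median number of CG dinucleotides was 16.5 for the members and 10 for 27305 promoters of all genes. The median was 19 for 195 promoters of numbered zinc finger genes of other chromosomes and 15 for 1300 promoters of other chromosome 19 genes. It was 17 for the 91 members measured in both lines and 13 for the 38 measured in NCI-H358 only, with ranges of 5 to 32 and 1 to 35 that overlap. In the ZNF101 to ZNF254 cluster, part of which is among those 38, the median was 8 (range 6 to 14). The share of this cluster in the lower median of the 38 was not tested. On either strand, the ETS core CCGGAAG was found in 31.1% of member promoters and 8.8% of all promoters, in 28.7% of the numbered zinc finger genes of other chromosomes, and in 7 of 13 promoters of the ZNF101 to ZNF254 cluster. The GC box GGGCGG was in 63.6% against 42.2% of all, and the TATA box TATAAA in 2.3% against 11.2%. For the zinc finger genes of other chromosomes these shares were 59.0% and 4.6%, and for the other chromosome 19 genes 58.1% and 7.4%. An NRF1 core, GCATGCGC, was in 3.0% against 2.8%. The motifs were searched separately and may overlap. Neighbouring promoters resemble each other, so their matches are not independent.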

How the data were processed

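RNA of 4 cultures was hybridised to Affymetrix 1-colour arrays, from 6 ug of total RNA each per the labels' protocols. The authors deposited linear intensity values, from 2.46 to 15499, and the submitters' processing notes name MAS5. The sources used here give no scaling target, and detection calls were not used here. The platform annotation gave 1 gene for 41091 of 54675 probe sets. Signals were floored at 16.14 (the 50th percentile), log2 was taken, and a gene counted as measured in a line at 27 or more on at least 1 array. The brightest probe set on average (log2) stood for its gene. limma 3.58.1 in R 4.3.3 (lmFit, eBayes) fitted terms for cell line and vector over 12271 genes, with 1 residual degree of freedom and a prior of 3.54, and was tested on simulated data. Cell line differences and shared vector differences are from this fit, and ratios within a line have no test. Chromosomes and gene order came from RefSeq GRCh38.p14, no coordinate of a probe set was used, and promoters were those of the most upstream start. Protein sequences were not used here.

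The members, gene lists, clusters and rule for named genes were chosen with earlier results of these data known. Named are CHST11, the extreme members in each comparison, the brightest members, those next to the filter, the extremes of each cluster, and ZNF320, ZNF682 and ZNF835; ones with little to describe were left out. ZNF43, ZNF101, ZNF160, ZNF675, ZNF681 and ZNF765 were added after their values were seen. Alternatives were 3 normalizations (quantile, median centring, cyclic loess), other floors and filters, the median of probe sets, plain-suffix probe sets, each vector pair alone and other model terms. Tables and plots used Python 3.11.15, NumPy 2.4.6, pandas 2.3.3 and matplotlib 3.10.9. The number of arrays limits the precision.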

Additional observations from a re-analysis of the deposited data

How the results depend on the processing

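The median cell line difference stayed above 0 under every alternative run, from 0.36 to 0.86. It was 0.7612 under cyclic loess normalization, 0.6406 with a pseudocount of 16 in place of the floor, 0.3596 with no signal filter, 0.7033 with the median of probe sets and 0.7072 from the empty vector arrays alone. Members called by limma between the lines numbered 64 of 81 with the filter at the 75th percentile and 24 of 208 with no signal filter, where many genes sit at the floor on every array; other settings stayed within 1.5 times of 112. In NCI-H358 the median vector ratio was 0.01655 with no signal filter. Members at least 1.5-fold apart numbered 2 with the stricter filter, 3 when probe sets were summarised by their median and 3 with plain-suffix probe sets there, and in A549 0 with a pseudocount of 16, with the stricter filter and with plain-suffix probe sets. For the ZNF101 to ZNF254 cluster the median was 0.3842 with the stricter filter (5 members) and also with plain-suffix probe sets (11 members), 0.1606 with no filter (26 genes), and 0.2192 when the probe sets of a gene were summarised by their median. Alternatives for this cluster and for single genes were chosen after seeing the data. ZNF226 reversed to 0.8062 with the median of probe sets, and ZNF253 to -0.05424 with the plain-suffix probe set, since another probe set then stands for the gene. Of single-gene values, 23 no longer passed and 262 kept direction and side. The shared vector fit called 0 members under each setting, also with no cell line term. The shared fit paired the vectors within each cell line, with the cell line as the block. No pairing of replicates was possible, because each group had 1 array and the labels carry no replicate numbers.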
